A study of Rattus norvegicus with 4 samples.

Results

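The TAK1-TAB complex and the Toll receptor signalling components that feed it were examined as 10 genes chosen by name: the kinase gene Map3k7 (TAK1), the TAK1-binding protein genes Tab1, Tab2 and Tab3, the receptor genes Tlr2 and Tlr4, the adaptor gene Myd88, the kinase genes Irak1 and Ikbkb, and the ubiquitin ligase gene Traf6. All 10 were found, each on 1 row, among the 17768 genes of the table. RNA had been sequenced from 4 libraries, 2 titled lv_Mettl3 and 2 titled lv_nc, of the established line NRK-52E, which derives from the kidney epithelium of a normal rat and is labelled proximal tubular. The labels describe a lentivirus, harvested 48 h after the packaging cells were transfected, that carried a murine Mettl3 cDNA (Mettl3 encodes the catalytic subunit of the enzyme that writes N6-methyladenosine on RNA). They describe a stable line obtained by selection with 0.5 mg/ml and maintenance with 0.25 mg/ml puromycin, in medium with 10% serum, and give this protocol for all 4 samples. The promoter that drives the cDNA, the number of clones, the meaning of nc and whether replicates were separate cultures are not stated in the labels, and each sample carries the treatment label untreated. The p-values below therefore measure the spread between these libraries only, which may be technical.

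Toll receptors sense microbial molecules at the cell surface or in endosomes. Most of them recruit the adaptor MyD88 and IRAK kinases, which activate the ubiquitin ligase TRAF6. Ubiquitin chains then draw in TAB2 or TAB3 with the kinase TAK1, and TAK1 phosphorylates the IKK complex, which releases NF-kB, as well as kinases upstream of JNK and p38. Interleukin-1 receptors enter the same route, and tubular epithelial cells are known to carry TLR4 and to respond to its ligand lipopolysaccharide.

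Recovered gene reads ranged from 15068898 to 16622255 per library. Mettl3 itself had normalized read counts of 757 and 700 in the lv_Mettl3 libraries, against 719 and 767 in the lv_nc libraries (limma log2 fold change -0.03, adjusted p = 0.931), so the titled gene did not separate the groups, and all directions are given for the libraries labelled lv_Mettl3 set against those labelled lv_nc. Reads of the murine cDNA were not looked for. Of 18 tubule and epithelial markers 14 were found, and 11 of these stayed under 50 normalized counts in every library. Krt8 (28296 and 32176 in lv_Mettl3, 29513 and 33065 in lv_nc), Tjp1 and Ggt1 were abundant. Lrp2, Aqp1 and Cubn of the same list were at 0 to 20.3. Ggt1 had 3294 and 3757 in lv_Mettl3, against 2412 and 2530 in lv_nc. It was the 1 gene of this list that DESeq2 called, as higher (adjusted p = 0.0345), and limma and edgeR called 0. DESeq2 called 1.45% of genes with an adjusted p higher. Summed leukocyte markers, of which 6 of 16 were found and all 6 stayed under 50, ranged from 33.9 to 72.3 in lv_Mettl3 and from 39.1 to 48.0 in lv_nc. Cells of the myeloid lineage, in which Toll receptor genes are high, thus left few marker reads in these libraries. Summed endothelial markers (7 of 10 found) were 93.3 to 118 in lv_Mettl3 and 72.3 to 159 in lv_nc. Summed fibroblast and smooth muscle markers (9 of 13 found) were 5294 to 5900 in lv_Mettl3 and 14074 to 18319 in lv_nc. DESeq2 called 4 of the 9 lower (Col1a1, Col3a1, Col1a2 and Acta2) and 0 higher. It called 1.07% and 1.45% of genes with an adjusted p in those directions. Limma and edgeR called 0 of the 9. Limma log2 fold changes were above 0 for 4 of the 9 and below 0 for 5. Without the collagen genes Col1a1 and Col3a1 the sums were 3482 and 3401 in lv_Mettl3 and 6046 and 3298 in lv_nc, which overlap, a split chosen after the values were seen. Of the 7 markers left, 2 (Col1a2 and Acta2) were still among the DESeq2 calls. The part of these markers in the results below was not tested. In these bulk libraries, fewer cells of a type and less RNA per cell cannot be told apart.

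None of the 10 genes passed any of 3 tests of lv_Mettl3 against lv_nc. Limma on log2(normalized count + 1), with Benjamini-Hochberg adjustment over all 16391 genes tested at 0.05, called 0 of the 10 (it called 0.0183% of all genes). DESeq2 and edgeR on the recovered reads also called 0 each. DESeq2 called 2.52% of the 12601 genes that it gave an adjusted p, and edgeR called 0.0305% of all genes. Where a share of all genes called by DESeq2 is given below, it is of the genes given an adjusted p. An unadjusted p under 0.05 was reached by 0 of the 10 in limma, DESeq2 and edgeR alike, where 10.5%, 7.44% and 10.1% of all genes reached it. The lowest limma adjusted p among the 10 was 0.656. The groups overlapped for 9 of the 10, and for 1, Irak1, both lv_Mettl3 libraries lay above both lv_nc libraries, while 45.0% of all genes tested had groups that did not overlap in either direction. With 2 libraries per group an exact permutation test of 1 gene cannot give a two-sided p below 0.333. Log2 fold changes from limma were above 0 for 7 genes and below 0 for 3, with a median of 0.08, against 0.01 over all genes tested. In size, regardless of sign, their median was 0.09, against 0.23 over all genes tested. These medians were not matched for level. Of the 16391 genes tested, 10051 had a mean of at least 100 normalized counts, and fold changes spread more widely where reads are few.

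**Figure D1:**
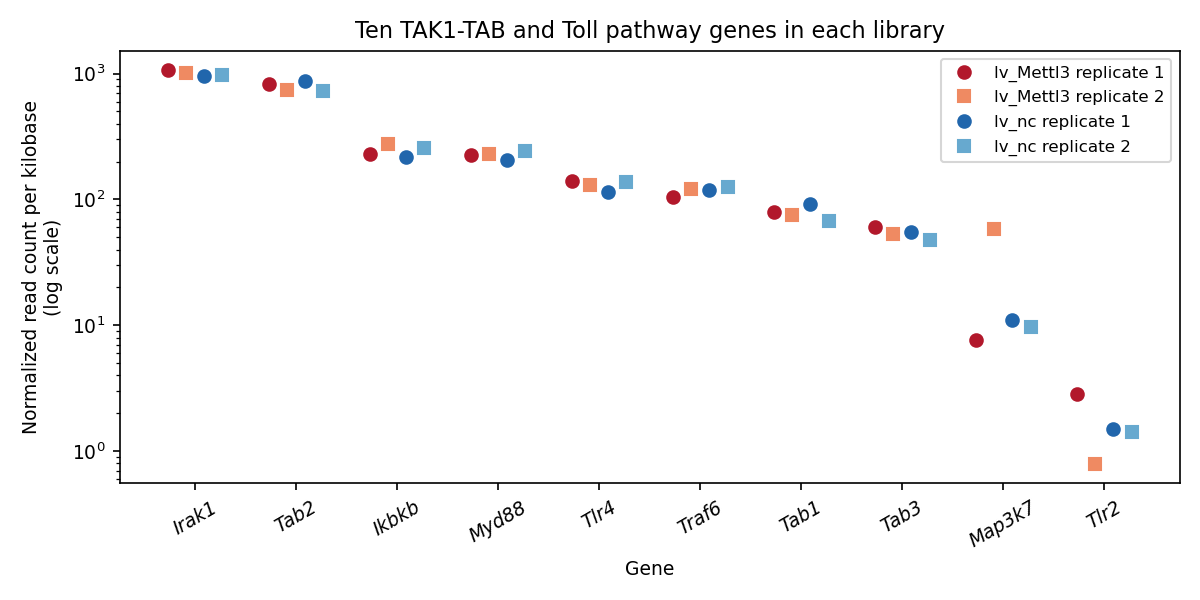
Normalized read count per kilobase of gene length, on a log axis, for each of the 10 genes, ordered by mean level; each point is 1 library, with lv_Mettl3 to the left of lv_nc. The points lie close together for 8 genes, while Map3k7 has 1 library apart from the other 3 and Tlr2 lies at 2.86 or below.

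Levels between genes were compared as normalized counts per kilobase, using the deposited gene lengths. By this measure the order over all 4 libraries was Irak1 (mean 1005), Tab2 (789), Ikbkb (245), Myd88 (227), Tlr4 (130), Traf6 (118), Tab1 (78.6), Tab3 (53.9), Map3k7 (21.6) and Tlr2 (1.65). Neighbours whose ranges over the libraries overlapped were Ikbkb with Myd88, Tlr4 with Traf6, and Tab3 with Map3k7, and the other neighbours were separate. The place of Map3k7 depends on its row, whose reads may be split with LOC100910771, described further on. Summed per kilobase, the pair had 100.4 and 112 in lv_Mettl3, against 74.0 and 19.7 in lv_nc. Its mean of 76.4 lies between those of Tab1 and Tab3, and its range overlapped those of Traf6, Tab1 and Tab3.

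Among the receptors, Tlr4, which senses lipopolysaccharide (chromosome 5, 82587420 to 82601052 in the file, whose build is not stated), had normalized counts of 464 and 434 in lv_Mettl3, against 383 and 461 in lv_nc. The lv_Mettl3 range lay across the upper lv_nc library, and the limma log2 fold change was 0.10 (SE 0.15, adjusted p = 0.824), a fold between 0.823 and 1.39 at 95% confidence. Tlr2, which pairs with Tlr1 or Tlr6 products to sense bacterial lipopeptides, had 7 and 2 reads in lv_Mettl3, against 4 and 4 in lv_nc. These sum to 9 reads in lv_Mettl3 (exact Poisson 95% interval 4.12 to 17.1) and 8 in lv_nc (3.45 to 15.8), which cover counting error only. A difference in Tlr2 was not detectable at this depth. Its limma interval ran from 0.323-fold to 3.47-fold, on a scale that understates folds at so few reads. DESeq2 gave Tlr2 a log2 fold change of 0.32 with an SE of 1.72, and no adjusted p.

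The genes of the first steps inside the cell, Myd88, Irak1 and Traf6, did not pass the test. Myd88, the adaptor shared by most Toll receptors and the interleukin-1 receptor, had 559 and 564 in lv_Mettl3, against 510 and 599 in lv_nc. Both lv_Mettl3 libraries fell between the lv_nc libraries, and limma gave a log2 fold change of 0.02 (SE 0.13; adjusted p = 0.959). Irak1, a kinase recruited by MyD88, had 3313 and 3188 in lv_Mettl3, against 3005 and 3054 in lv_nc. Its groups did not overlap, but the limma log2 fold change was 0.10 (SE 0.08; adjusted p = 0.656), and the highest library was 1.10 times the lowest. The Irak1 row overlaps the small RNA gene RF00420 on the same strand. Traf6, the ligase that links IRAK kinases to TAK1, had 285 and 327 in lv_Mettl3, against 322 and 342 in lv_nc, with the higher lv_Mettl3 library between the lv_nc libraries (log2 fold change -0.12, SE 0.15, limma adjusted p = 0.767).

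The genes of the TAK1-binding proteins did not pass it either. Tab1, whose product binds and activates TAK1, had 275 and 256 in lv_Mettl3, against 315 and 233 in lv_nc, so that the lv_nc libraries enclosed the lv_Mettl3 libraries. Tab2, whose product brings TAK1 to ubiquitin chains, had 3784 and 3363 in lv_Mettl3, against 3970 and 3316 in lv_nc, again within the lv_nc range. Tab3, the homologue of Tab2 with the same role, had 129 and 114 in lv_Mettl3, against 118 and 102 in lv_nc, with overlapping groups. Their limma log2 fold changes were -0.03 (SE 0.20), -0.02 (SE 0.13) and 0.15 (SE 0.22) for Tab1, Tab2 and Tab3, with adjusted p between 0.818 and 0.969. Per kilobase, Tab2 was 13.8 ± 0.109 times Tab3 in lv_Mettl3 and 15.5 ± 0.309 times in lv_nc (SD, n = 2 libraries each), a description for which no test was run. Tab2 was likewise 10.1 ± 0.349 times Tab1 in lv_Mettl3 and 10.1 ± 0.866 times in lv_nc.

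Downstream of TAK1, Ikbkb, the catalytic IKK subunit that phosphorylates the NF-kB inhibitor proteins, had 814 and 975 in lv_Mettl3, against 779 and 909 in lv_nc. The replicates of each group differed by more than the group means, and the limma log2 fold change was 0.08 (SE 0.14; adjusted p = 0.848). Its level per kilobase was 0.885 ± 0.236 times that of Chuk, the other catalytic subunit, in lv_Mettl3 and 0.918 ± 0.258 times in lv_nc. Over the 8 genes other than Map3k7 and Tlr2, the limma 95% intervals lay between 0.690-fold and 1.62-fold, and the highest library was 1.10 to 1.35 times the lowest. Changes inside those limits cannot be told from none with these libraries.

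**Figure D2:**
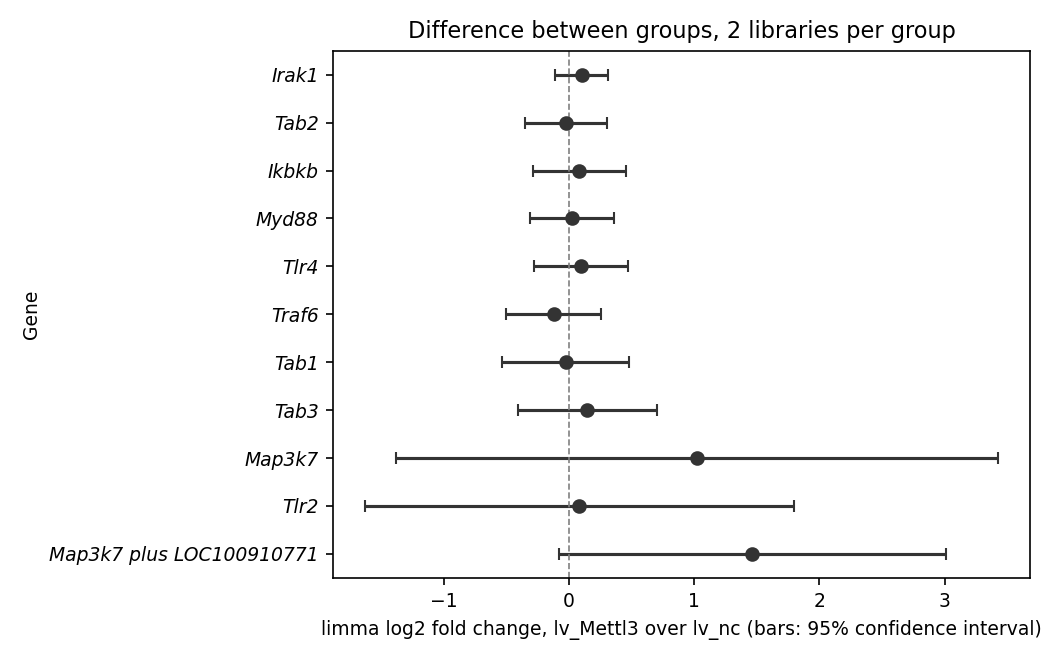
Limma log2 fold change, lv_Mettl3 over lv_nc, with 95% confidence intervals as bars, for the 10 genes and for the sum of Map3k7 and LOC100910771. Every interval includes 0, and those of Map3k7, Tlr2 and the sum are the widest.

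Map3k7 was the gene with a library apart. Its row (ENSRNOG00000005724, chromosome 5, 47186558 to 47244416) had 33 and 255 reads, or normalized counts of 34.99 and 264, in lv_Mettl3, against 49.8 and 44.3 in lv_nc. Replicate 2 of lv_Mettl3 was high, replicate 1 of lv_Mettl3 was the lowest of all, and the groups overlapped. The limma log2 fold change was 1.02 (SE 0.94, adjusted p = 0.692), an interval from 0.384-fold to 10.8-fold. Without lv_Mettl3 replicate 1 it was called, at a log2 fold change of 2.46 (limma adjusted p = 0.0321; DESeq2 2.48, adjusted p = 0.00861), in fits that called 0.255% and 0.415% of all genes, and without lv_Mettl3 replicate 2 the direction turned, at -0.42 (limma adjusted p = 0.998). A ratio of highest to lowest library as large as that of Map3k7 (7.53) was found in 0.468% of the 10051 genes with a mean of at least 100. Map3k7 itself did not reach that mean.

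A second row of the table carries the same description with the word like added, LOC100910771 (ENSRNOG00000047516, chromosome 9, 114022137 to 114079089). It was the only such row found for any of the 10 genes. Among RefSeq's genes of GRCr8, 1 matched Map3k7 and 0 matched LOC100910771 by symbol, identifier or synonym. LOC100910771 had 388 and 224 in lv_Mettl3, against 264 and 41.5 in lv_nc, and reads may be split between the rows, so the value of either is uncertain. The share of the pair's reads given to Map3k7 was 8.27% (exact Clopper-Pearson 95% interval 5.76 to 11.4) and 54.0% (49.4 to 58.6) in lv_Mettl3 replicates 1 and 2. It was 15.9% (12.1 to 20.4) and 51.6% (41.0 to 62.1) in lv_nc replicates 1 and 2. The share was low in both libraries numbered 1 and near even in both numbered 2, whichever the group. These intervals cover counting error only.

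Summed over both rows, the normalized counts were 423 and 488 in lv_Mettl3, against 314 and 85.9 in lv_nc. The lv_Mettl3 replicates came closer together than for either row alone, while the lv_nc replicates lay further apart than for Map3k7 alone. The groups no longer overlapped, as for 45.0% of all genes tested, with lv_nc replicate 2 low. The highest library was 5.68 times the lowest. The sum was not called by limma (log2 fold change 1.46, SE 0.60, adjusted p = 0.488), with an interval from 0.944-fold to 8.04-fold. DESeq2 did not call it either (log2 fold change 1.19, SE 0.86, adjusted p = 0.771). Summing thus raised the log2 fold change in limma, from 1.02 for Map3k7 alone, and lowered it in DESeq2, from 1.67. The limma log2 fold change of the sum was 2.39 without lv_nc replicate 1 and 0.53 without lv_nc replicate 2. It was 1.56 without lv_Mettl3 replicate 1 and 1.36 without lv_Mettl3 replicate 2. Summing was chosen after the values were seen.

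**Figure D3:**
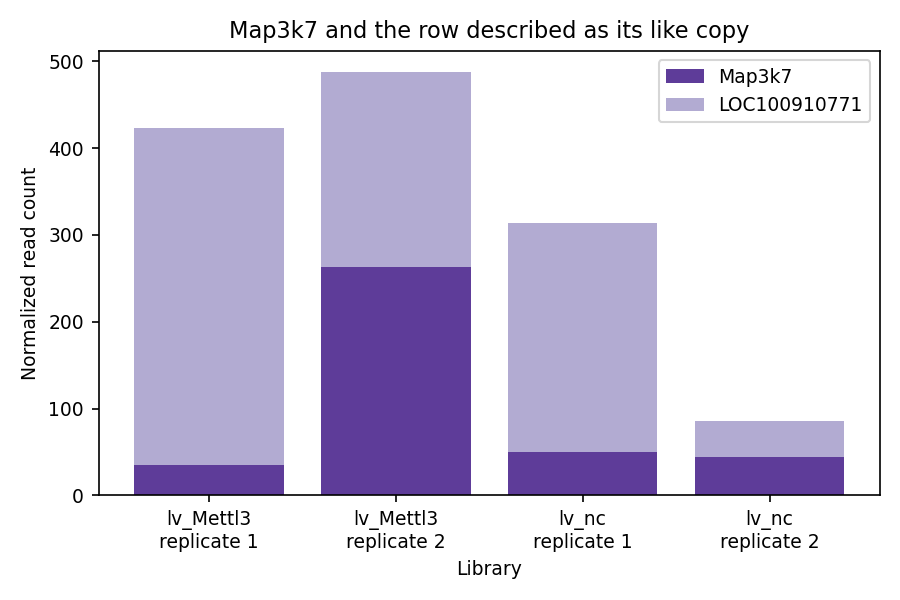
Normalized read counts of Map3k7 (dark) and LOC100910771 (light), stacked, in each of the 4 libraries. The sums are 423 and 488 in lv_Mettl3 and 314 and 85.9 in lv_nc, and the dark part makes up 8.27% and 15.9% in the libraries numbered 1 but 54.0% and 51.6% in those numbered 2.

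Genes whose pattern over the 4 libraries was most like that of Map3k7, by Euclidean distance between log2 deviations from each gene's mean, were LOC103693608 (distance 0.97), Cd151 (1.06) and LOC100910308 (1.17). Each had its highest value in lv_Mettl3 replicate 2 (285, 1056 and 343 normalized counts). LOC103693608 shares its description with another row, LOC100910275, while no other row had the same wording as Cd151 or LOC100910308. Only identical wording, aside from the word like, was matched, so a copy described in other words would be missed. Among genes with a mean of at least 100, 5.10% share a description with another row, and among the 47 of them that vary as widely as Map3k7 12 do (25.5%). Map3k7 itself is not among these genes. Whether a shared description has a part in its spread was not tested. For Irak1, the gene with the smallest p, the closest were Ppib, Fars2 and Cyfip1, at distances of 0.01 to 0.02.

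Which other Toll receptors the line carries was asked from the same table. In lv_Mettl3 the order of means per kilobase was Tlr4 (134), Tlr1 (116), Tlr3 (92.6), Tlr5 (80.0), Tlr6 (35.1), Tlr2 (1.83) and Tlr9 (0.163). In lv_nc it was Tlr5 (138), Tlr4 (126), Tlr3 (106), Tlr1 (44.5), Tlr6 (24.8), Tlr2 (1.47) and Tlr9 (0.150). Per kilobase, Tlr1 stood above Tlr5 in both lv_Mettl3 libraries and below it in both lv_nc libraries. DESeq2, but neither limma nor edgeR, called both. Tlr1, a partner of the Tlr2 product, rose, with 287 and 257 in lv_Mettl3, against 110 and 98.8 in lv_nc (log2 fold change 1.38 with SE 0.30 in DESeq2, adjusted p = 0.000539, and 1.37 in limma, adjusted p = 0.272). Its 2 groups lay well apart. Tlr5, the flagellin receptor, fell, with 350 and 331 in lv_Mettl3, against 509 and 667 in lv_nc (log2 fold change -0.79 with SE 0.23 in DESeq2, adjusted p = 0.0294, and -0.77 in limma, adjusted p = 0.385). Tlr6, close in sequence to Tlr1, had 266 and 256 in lv_Mettl3, against 205 and 164 in lv_nc, and was not called (DESeq2 adjusted p = 0.568). The DESeq2 call of Tlr1 was kept without either lv_nc library and lost without either lv_Mettl3 library, at log2 fold changes of 1.29 to 1.46. The fits without an lv_Mettl3 library called a smaller share of all genes than those without an lv_nc library. The call of Tlr5 was kept only in the fit without lv_nc replicate 1, which called the largest share of all genes. The log2 fold changes of Tlr5 in the 4 DESeq2 fits that left out a library were -0.97 to -0.59.

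**Figure D4:**
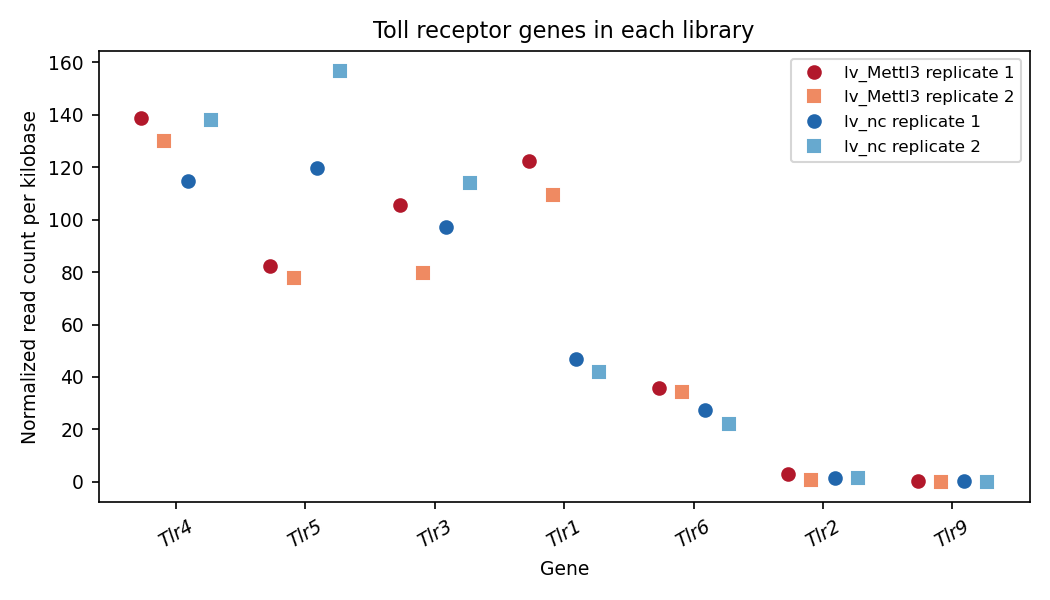
Normalized read count per kilobase of the 7 Toll receptor genes of the table, 1 point per library, with lv_Mettl3 to the left of lv_nc. Tlr1 is higher and Tlr5 lower in both lv_Mettl3 libraries than in both lv_nc libraries, while Tlr2 and Tlr9 lie near 0.

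Other genes of the pathway were read from 4 lists by role. Of their 113 symbols 99 were found, on 100 rows because Map2k3 has 2, and 98 rows were tested. Limma and edgeR called 0 of them, and DESeq2 called 3 higher and 1 lower. It called 1.45% and 1.07% of the 12601 genes with an adjusted p in those directions. Some of the 98 rows, such as Tnfrsf1b, had no DESeq2 adjusted p. At an unadjusted p under 0.05 limma had 11 higher and 3 lower, where 5.54% and 4.93% of all genes reached it in those directions. Without lv_nc replicate 1 limma called 9 of 95 rows (9.47%), against 8.92% of all genes, and DESeq2 called 11 of 88 (12.5%), against 12.7% of all genes, so both shares were near the background. Without lv_nc replicate 2 DESeq2 called 4 of 89 (4.49%), against 1.61% of all genes. Without lv_Mettl3 replicate 1 or 2 DESeq2 called 0, where it called 0.415% and 0.452% of all genes. Limma called 0 without lv_nc replicate 2 and without lv_Mettl3 replicate 1 or 2, where it called 0.175%, 0.255% and 0.275% of all genes. The median limma log2 fold change over the 98 was 0.07, against 0.01 over all genes tested. Over the 100 rows, groups did not overlap for 35 higher and 20 lower, where 23.5% and 21.5% of all genes tested did so in those directions. The rows counted here include untested ones, such as Sigirr, lower at 0 and 0 reads in lv_Mettl3 against 1 and 1 in lv_nc. Some tested rows also rest on few reads, such as Traf1, higher at 3 and 2 against 0 and 1.

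Among 21 receptors and co-receptors tested, Tlr1 and Tlr5 above were the DESeq2 calls, and the list median was 0.09. Its most abundant genes per kilobase were Hsp90b1 and Cnpy3, whose products fold Toll receptors together. Hsp90b1 had 38802 and 34373 in lv_Mettl3, against 27191 and 27497 in lv_nc (DESeq2 adjusted p = 0.0734). Cnpy3 had 2500 and 2565 in lv_Mettl3, against 2468 and 2953 in lv_nc, with overlapping groups.

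Of 25 adaptors and ubiquitin enzymes, DESeq2 called Ripk2, a kinase that carries NOD receptor signals to TAK1, and the list median was 0.08. Ripk2 rose, with 2550 and 2696 in lv_Mettl3, against 1702 and 1528 in lv_nc (log2 fold change 0.70 with SE 0.16 in DESeq2, adjusted p = 0.000906, and 0.70 in limma, adjusted p = 0.292). Its call was kept without either lv_nc library and lost without either lv_Mettl3 library, where DESeq2 called a smaller share of all genes. The log2 fold changes in these fits were 0.62 to 0.78. The ubiquitin-binding scaffold gene Sqstm1 had 5664 and 6066 in lv_Mettl3, against 5592 and 8215 in lv_nc, and overlaps Mrnip on the other strand. Ube2d3, a ubiquitin-conjugating enzyme, had 5051 and 4984 in lv_Mettl3, against 4907 and 4249 in lv_nc.

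Of 29 rows of kinases at and below the TAK1 and IKK step, DESeq2, limma and edgeR called 0, with 2 higher and 1 lower at an unadjusted limma p under 0.05, a share near the 10.5% of all genes that reached it. The list median was 0.03. Map2k1 had 4006 and 4414 in lv_Mettl3, against 3460 and 3916 in lv_nc. Mapk3, the ERK1 gene, had 2854 and 3128 in lv_Mettl3, against 3314 and 4625 in lv_nc. Neither passed the test.

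Of 23 inhibitors, DESeq2 called Tnfaip3, which encodes the ubiquitin-editing enzyme A20 that acts on TRAF6 and RIPK proteins, and the list median was 0.06. Tnfaip3 rose, with 350 and 314 in lv_Mettl3, against 164 and 198 in lv_nc (log2 fold change 0.88 with SE 0.27 in DESeq2, adjusted p = 0.0430, and 0.88 in limma, adjusted p = 0.378). It was called in 0 of the 4 DESeq2 fits that left out a library, with log2 fold changes of 0.75 to 1.01. Usp18 had 2779 and 2944 in lv_Mettl3, against 1859 and 2512 in lv_nc, and Dusp1, a phosphatase of p38 and JNK, had 1570 and 1480 in lv_Mettl3, against 1330 and 1140 in lv_nc. Neither of these was called.

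**Figure D5:**
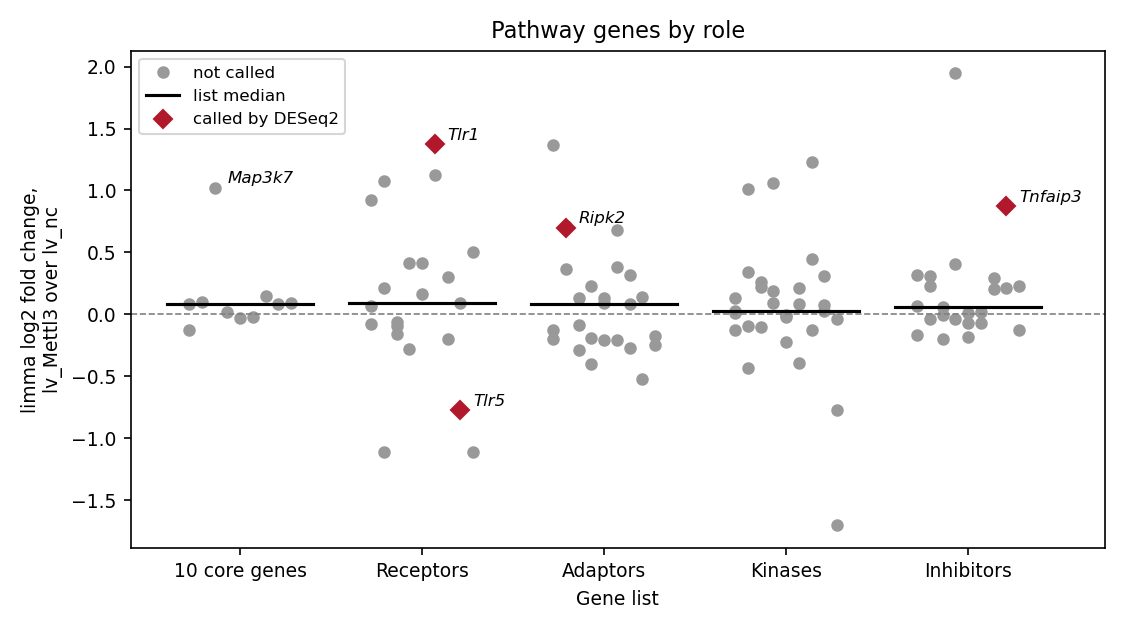
Limma log2 fold change, lv_Mettl3 over lv_nc, of each tested gene of the 10 core genes and of 4 pathway lists; red diamonds are genes called by DESeq2 and black lines list medians. The medians lie between 0.03 and 0.09, and the named diamonds are Tlr1, Tlr5, Ripk2 and Tnfaip3.

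Promoter sequences show which of these genes carry, near their start, letters that NF-kB or interferon-regulatory factors are known to bind. RefSeq windows of GRCr8, 250 bases before to 50 bases after the start, matched 7 of the 10 genes (all but Tab1, Traf6 and Ikbkb) and 3 of the 4 DESeq2-called genes (all but Ripk2). The NF-kB motif was searched as GGGANTTNC and the core of the interferon-stimulated response element as GAAANNGAA, on both strands. The first was present in 1 of the 7 (Tlr2) and in 1 of the 3 (Tnfaip3), and in 4.17% of 33469 windows. The second was present in 1 of the 7 (Myd88) and 0 of the 3, and in 9.71% of all windows. The 3 windows with a match are shown because they set Tlr2, with few reads, and Myd88 beside the called inhibitor Tnfaip3, with the matching letters in capitals, 5′ to 3′ on the gene's strand (Tlr2 chr2:171504508-171504807, minus; Myd88 chr8:127956181-127956480, minus; Tnfaip3 chr1:15543930-15544229, minus).
Tlr2: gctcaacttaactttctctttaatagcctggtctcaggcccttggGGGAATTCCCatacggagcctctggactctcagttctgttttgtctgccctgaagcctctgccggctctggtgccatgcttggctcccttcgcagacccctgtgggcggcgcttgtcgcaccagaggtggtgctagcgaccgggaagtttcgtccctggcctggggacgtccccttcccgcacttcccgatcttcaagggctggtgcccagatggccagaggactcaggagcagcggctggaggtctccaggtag
Myd88: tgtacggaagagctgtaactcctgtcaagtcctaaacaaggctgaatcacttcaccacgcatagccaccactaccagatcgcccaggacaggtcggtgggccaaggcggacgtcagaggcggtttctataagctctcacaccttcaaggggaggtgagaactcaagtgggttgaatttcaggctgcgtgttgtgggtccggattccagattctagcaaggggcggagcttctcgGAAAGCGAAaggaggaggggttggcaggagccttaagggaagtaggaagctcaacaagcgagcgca
Tnfaip3: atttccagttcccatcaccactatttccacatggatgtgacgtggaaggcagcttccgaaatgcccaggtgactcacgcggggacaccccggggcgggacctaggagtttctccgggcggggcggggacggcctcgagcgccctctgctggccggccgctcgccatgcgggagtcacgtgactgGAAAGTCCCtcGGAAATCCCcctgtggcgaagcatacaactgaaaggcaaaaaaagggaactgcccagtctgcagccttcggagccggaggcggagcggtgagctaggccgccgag
In Tlr2 the motif occurs on both strands, and the overlapping matches begin 205 and 204 bases before the start. That of Myd88 begins 16 bases before it, and the pair in Tnfaip3 begins 66 and 55 bases before it, both on the opposite strand. A match is a run of letters, not a measured binding site. The motifs were chosen after the values were seen.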

How the data were processed

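Per the submitters' processing notes, reads were handled with CASAVA 1.4 and HISAT2; nothing used here states the counter, genome build, annotation release, library kit or strand. The authors deposited a signal per gene and library, gene read counts divided by 1 size factor per library: 100% of values in each library were whole multiples of 1 step within 0.001 reads, which gave back whole reads. The table also holds log2 fold changes and p-values of the authors, named in its file header; these were not used.

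Groups and replicate numbers came from the sample titles. The main test was limma 3.58.1 with an intensity trend, on log2(value + 1), for genes that reached 1 in 2 or more libraries. P-values were adjusted by Benjamini-Hochberg over all genes, at 0.05, and fold changes on that scale understate low genes. DESeq2 1.42.0 and edgeR 4.0.16 (quasi-likelihood) were run on the recovered reads, in R 4.3.3. A gene is said to have risen or fallen where the test named beside it called it. Scripts were tested on simulated data. There the share of false calls lay above the threshold for DESeq2 and below it for limma and edgeR, which recovered fewer of the 2-fold changes than DESeq2. Calls made by DESeq2 alone may carry such an excess, whose size in the real data was not measured. Alternatives changed the pseudocount, filter, scaling, empirical Bayes, replicate block and tool, and left out each library.

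The 10 genes and the gene lists were chosen with earlier results of these data known. Besides the 10, named genes are the called members of each list (up to 4), the 2 most abundant per kilobase in each, and the 3 nearest in pattern to Map3k7 and to the member with the smallest p. Genes named on other grounds are LOC100910771, LOC100910275, Chuk, Tlr3, Tlr6, Tlr9, Mettl3, Mrnip, RF00420, Map2k3 and the markers.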

Additional observations from a re-analysis of the deposited data

How the results depend on the processing

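None of the 10 genes was called under the pseudocount, filter, scaling, robust, block and tool alternatives. Without 1 library the number called was 0 to 1 in limma, 0 to 1 in DESeq2 and 0 to 1 in limma with Map3k7 and LOC100910771 summed, the 1 being Map3k7 or the sum. Limma called 3 genes in all, against 0 with a pseudocount of 0.1, 5 with at least 1 CPM in all 4 libraries, 24 with robust empirical Bayes, 5 with edgeR, 5 with limma-voom and 318 with DESeq2. Without 1 library it called 28 to 1431. DESeq2 called 1547 and 217 without lv_nc replicates 1 and 2, and 56 and 61 without lv_Mettl3 replicates 1 and 2. Of the pathway lists limma called 0 and DESeq2 4; without 1 library these were 0 to 9 and 0 to 11. Fold changes near 0 had no stable direction: Myd88 was -0.017 with library size scaling. Without 1 library limma log2 fold changes ranged from -0.047 to 0.212 for Ikbkb, -0.415 to 2.463 for Map3k7, -0.093 to 0.139 for Myd88, -0.245 to 0.189 for Tab1, -0.154 to 0.105 for Tab2, -0.646 to 0.811 for Tlr2 and -0.037 to 0.229 for Tlr4; the cause was not tested. Irak1, Tab3 and Traf6 kept their direction in these fits. With a replicate block limma called 3 genes and 0 of the 10 (Map3k7 adjusted p = 0.581). The labels do not say that the numbers mark a shared batch or culture; deviations of same-numbered libraries had r = 0.33 over 10051 genes. With 1 library left in a group, it is assumed to vary like the other group. Among the 10, Tlr2 had too few reads for a difference to be detectable.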
